A study of Mus musculus with 12 samples.

Results

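A set of 9 genes of bone formation was followed in mouse bone marrow mesenchymal stromal cells (MSCs): the transcription factors Runx2, Sp7, Dlx5, Msx1 and Msx2, the enzyme gene Alpl, and the matrix protein genes Bglap, Spp1 and Ibsp. These 9 genes were taken by name, through their Ensembl identifiers, out of the 55487 genes counted by RNA-seq in 12 samples. The MSCs were primary cells flushed from the femurs of wild-type female C57BL/6 mice of 6 to 8 weeks and expanded in culture in growth medium, with no osteogenic induction named. Each of 3 groups held 4 samples. Control MSCs were untreated, A1-treated MSCs received 50 µM A1 for 6 h, and A1/OVA-treated MSCs received 50 µM A1 with 1 mg/mL ovalbumin (OVA), a model antigen, for 6 h. A1 is cholic acid, a bile acid, linked to a nuclear localization peptide of the RNA-binding protein hnRNPA1. No group received OVA alone, a vehicle for the controls was not described, and the description of the A1/OVA medium also names insulin without a dose, so that OVA and insulin cannot be told apart here. Nothing in the sample descriptions says that the 4 samples of a group came from separate cultures or animals, and the p-values therefore measure only the spread between these samples, which may be technical.

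RUNX2 is the transcription factor that commits mesenchymal cells to the osteoblast lineage, and osterix, encoded by Sp7, acts downstream of it. The homeobox proteins DLX5, MSX1 and MSX2 tune this program. Committed cells then make tissue-nonspecific alkaline phosphatase, encoded by Alpl, which removes the mineralization inhibitor pyrophosphate, and secrete osteopontin (Spp1), bone sialoprotein (Ibsp) and osteocalcin (Bglap). Bone marrow MSCs are a source of osteoblasts.

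Sequencing gave 13702348 to 16881995 counts per sample. Levels are given as CPM, the usual unit of counts divided by the (TMM-scaled) library size, and as CPM per kilobase of exon where genes are compared with each other. Of the 9 genes, 6 had enough counts to be tested. Sp7, Bglap and Ibsp did not. In control MSCs the 6 tested genes spanned a wide range per length. Spp1 stood at 696 ± 24.5 CPM per kb (SD, n = 4), which ranked 21 among 11314 tested genes. Runx2 followed with 14.1 ± 0.832, Msx2 with 6.65 ± 0.322 and Alpl with 3.80 ± 0.0862 CPM per kb. Dlx5 and Msx1 were the lowest, at 0.950 ± 0.0742 and 0.640 ± 0.0787 CPM per kb, and no 2 neighbours in this order overlapped between samples.

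The order changed at its low end with treatment. In A1-treated MSCs Dlx5 fell to 0.220 ± 0.0613 CPM per kb, below Msx1 at 0.659 ± 0.106, and in A1/OVA-treated MSCs it stood at 0.152 ± 0.0214 against 0.709 ± 0.213 for Msx1. The other genes kept their order of group means, with Spp1 at 1936 ± 84.7 and 1338 ± 108, Runx2 at 11.1 ± 0.477 and 9.35 ± 0.185, Msx2 at 8.13 ± 0.382 and 8.06 ± 0.220, and Alpl at 2.26 ± 0.305 and 2.35 ± 0.136 CPM per kb in A1- and A1/OVA-treated MSCs. Spp1 ranked 10 and 11 among all tested genes in these groups.

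The first question was which of these genes differed between A1-treated and control MSCs. Of the 6 tested genes, 5 differed at an adjusted p under 0.05 in edgeR's quasi-likelihood test, against a background of 62.7% of all tested genes. Spp1 and Msx2 were higher, beside 31.7% of all genes, and Runx2, Dlx5 and Alpl were lower, beside 31.1%. Dlx5 had under 10 counts in every treated sample and passed the count filter through its controls, so only a fall could be called. Msx1 did not pass the test. The median log2 fold change was -0.15 over the 6 tested genes and -0.002 over all genes. Such changes are those of bulk samples, in which fewer cells of a type and less RNA per cell cannot be told apart.

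**Figure D1:**
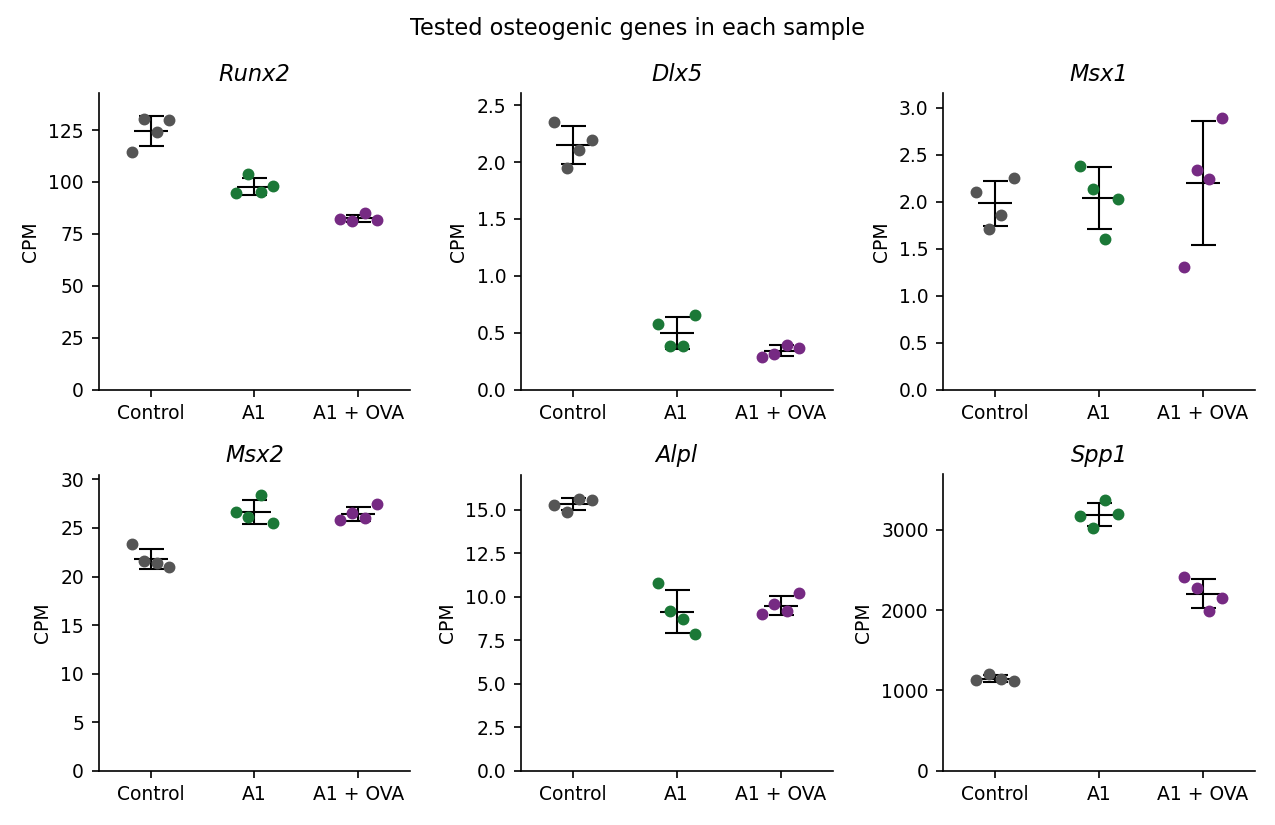
CPM of the 6 tested genes in each of the 12 samples, with 1 panel per gene and a linear axis that starts at 0. Points are samples and horizontal bars are group means with their SD (n = 4). Spp1 rose from 1113 to 1206 CPM in control MSCs to 3029 to 3368 CPM in A1-treated MSCs, while Runx2, Dlx5 and Alpl were lower in every treated sample than in any control.

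Among the regulators, Runx2 (ENSMUSG00000039153, GRCm38 chr17:44495987-44814797, minus strand) had 114, 130, 124 and 130 CPM in control MSCs. It had 94.7, 104, 94.96 and 97.9 CPM in A1-treated MSCs and 82.3, 81.2, 85.0 and 81.9 CPM in A1/OVA-treated MSCs. The 3 groups stood in this order without overlap. Runx2 fell by 0.35 on the log2 scale with A1 (SE 0.044, 95% confidence interval -0.44 to -0.26, adjusted p = 6.12e-07, edgeR quasi-likelihood test). Between A1/OVA-treated and control MSCs it fell by 0.59 (SE 0.044, interval -0.69 to -0.50, adjusted p = 1.92e-10, same test).

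Dlx5 (ENSMUSG00000029755, chr6:6877805-6882085, minus strand), a homeobox activator of osteoblast genes, had the largest fall of the 6 tested genes. It had 38, 33, 34 and 35 counts in control MSCs, 8, 5, 5 and 9 in A1-treated MSCs and 4, 5, 6 and 6 in A1/OVA-treated MSCs. All treated samples lay far below all controls, although the counts behind the treated values are few. Every treated sample had under 10 counts, so that Dlx5 passed the count filter through its control samples alone. Among genes this low in treated MSCs only falls could be tested, and the p-values below carry that limit. The mean level was 2.15 ± 0.168, 0.499 ± 0.139 and 0.343 ± 0.0485 CPM in the 3 groups. This was 4.23-fold lower with A1 (log2 fold change -2.08, SE 0.227, interval -2.55 to -1.61, adjusted p = 6.63e-08, edgeR) and 6.11-fold lower with A1/OVA (log2 fold change -2.61, SE 0.238, interval -3.11 to -2.12, adjusted p = 4.59e-09, edgeR).

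Msx2 (ENSMUSG00000021469, chr13:53466884-53473074, minus strand), a homeobox repressor that can also promote osteoblast differentiation, moved the other way. Control samples had 23.3, 21.6, 21.4 and 20.9 CPM, A1-treated samples 26.6, 26.1, 28.4 and 25.5 CPM, and A1/OVA-treated samples 25.8, 26.5, 26.01 and 27.4 CPM. Every treated sample was above every control. Msx2 rose by 0.29 on the log2 scale with A1 (SE 0.059, interval 0.17 to 0.41, adjusted p = 0.000213, edgeR) and by 0.28 with A1/OVA (SE 0.058, interval 0.16 to 0.40, adjusted p = 0.000293, edgeR).

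Msx1 (ENSMUSG00000048450, chr5:37820485-37824583, minus strand), its close relative, had 34, 29, 30 and 36 counts in control MSCs, 33, 28, 21 and 28 in A1-treated MSCs and 18, 37, 34 and 47 in A1/OVA-treated MSCs. The groups overlapped throughout. The log2 difference from controls was 0.05 with A1 (interval -0.39 to 0.48, adjusted p = 0.862, edgeR) and 0.17 with A1/OVA (interval -0.25 to 0.58, adjusted p = 0.489, edgeR), intervals wide enough to hold the change of Msx2.

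Sp7 (ENSMUSG00000060284, chr15:102356606-102367182) had 1, 0, 2 and 2 counts in control MSCs, 2, 2, 2 and 0 in A1-treated MSCs and 0, 0, 1 and 0 in A1/OVA-treated MSCs. A count of 0 allows up to 3 counts, or 0.177 to 0.229 CPM depending on the sample, and all 12 values lay at or under this floor. A difference in Sp7 was not detectable at this depth. Such floors cover counting error only.

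The sequence just upstream of the start is shown for the matrix genes Spp1 and Bglap, since the letters ACCACA, part of the site that RUNX proteins bind, stand once in each of these windows. RefSeq gave 250 bases before the start for 7 of the 9 genes, with 9 windows in all, on GRCm38.p6. ACCACA was searched on both strands (TGTGGT on the other, and the 2 cannot overlap), and 14.05% of 32851 such windows of all genes hold it. The capitals mark the match, and each sequence runs 5′ to 3′ on the gene's strand, at chr5:104434861-104435110 (plus) for Spp1 and chr3:88384467-88384716 (minus) for Bglap.
Spp1: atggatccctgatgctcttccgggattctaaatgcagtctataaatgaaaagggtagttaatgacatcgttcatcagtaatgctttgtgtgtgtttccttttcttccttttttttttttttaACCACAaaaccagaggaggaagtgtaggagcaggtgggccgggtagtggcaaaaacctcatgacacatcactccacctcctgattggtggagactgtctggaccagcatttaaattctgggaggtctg
Bglap: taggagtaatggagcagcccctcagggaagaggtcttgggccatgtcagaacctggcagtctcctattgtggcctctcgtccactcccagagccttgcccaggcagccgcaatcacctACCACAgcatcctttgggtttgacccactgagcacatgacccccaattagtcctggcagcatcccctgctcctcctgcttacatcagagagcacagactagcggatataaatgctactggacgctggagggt
The match begins 128 bases before the start in Spp1 and 132 in Bglap. Spp1 has a second window, at chr5:104435942-104436191, which holds no match, and 3 of the 9 windows hold one. The Runx2 window also holds 1 match, 80 bases before the RefSeq start, but RefSeq and the GENCODE annotation, from which the gene's coordinates above are taken, differ in that start, and the match lies inside Runx2 as GENCODE places it. A match is a description of the letters and not of binding. The 3 genes with a match had unlike values, since Runx2 was lower, Spp1 higher and Bglap at the floor in treated MSCs.

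Alpl (ENSMUSG00000028766, chr4:137741733-137796384, minus strand) fell in both treated groups. Its levels were 15.3, 14.8, 15.6 and 15.6 CPM in control MSCs, 10.8, 9.16, 8.70 and 7.84 CPM in A1-treated MSCs and 8.99, 9.56, 9.18 and 10.2 CPM in A1/OVA-treated MSCs. No treated sample reached the lowest control. Alpl was 1.68-fold lower with A1 (log2 fold change -0.75, SE 0.087, interval -0.93 to -0.57, adjusted p = 1.71e-07, edgeR) and 1.61-fold lower with A1/OVA (log2 fold change -0.69, SE 0.084, interval -0.86 to -0.51, adjusted p = 4.19e-07, edgeR).

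Spp1 (ENSMUSG00000029304, chr5:104435118-104441050, plus strand) encodes osteopontin, a secreted phosphoprotein that binds integrins and CD44 and restrains mineral growth, and that many cell types besides osteoblasts make. Its levels were 1133, 1206, 1140 and 1113 CPM in control MSCs, 3167, 3029, 3368 and 3198 CPM in A1-treated MSCs and 2409, 2271, 1992 and 2146 CPM in A1/OVA-treated MSCs. The 3 groups were apart, with A1/OVA between the others. Spp1 was 2.78-fold higher with A1 (log2 fold change 1.48, SE 0.050, interval 1.37 to 1.58, adjusted p = 3.73e-16, edgeR) and 1.92-fold higher with A1/OVA (log2 fold change 0.94, SE 0.050, interval 0.84 to 1.05, adjusted p = 5.97e-13, edgeR). It took 0.116% of all counts in control MSCs, 0.306% in A1-treated and 0.213% in A1/OVA-treated MSCs. A short same-strand gene model, Gm42793, lies within Spp1, at 1.60 CPM in control and 2.72 CPM in A1-treated MSCs, and reads in the stretch shared by both models could have been split or left uncounted.

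Osteocalcin and bone sialoprotein, both made by mature osteoblasts, were at the floor. Bglap (ENSMUSG00000074483, chr3:88383501-88384464) had 1, 1, 0 and 0 counts in control MSCs and 0 in all 8 treated samples, and Ibsp (ENSMUSG00000029306, chr5:104299171-104311469) had 0 in all 12. The osteocalcin gene has close copies next to it, and 38.7% of the 100-base words of Bglap recur in Bglap2 or Bglap3, so that its reads could have been split or left uncounted. Bglap2 had 2 counts, both in A1 replicate 1, and Bglap3 had 5, 3, 1 and 0 counts in control MSCs, 1, 0, 0 and 1 in A1-treated MSCs and 0, 0, 2 and 0 in A1/OVA-treated MSCs. No comparison was made for them.

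**Figure D2:**
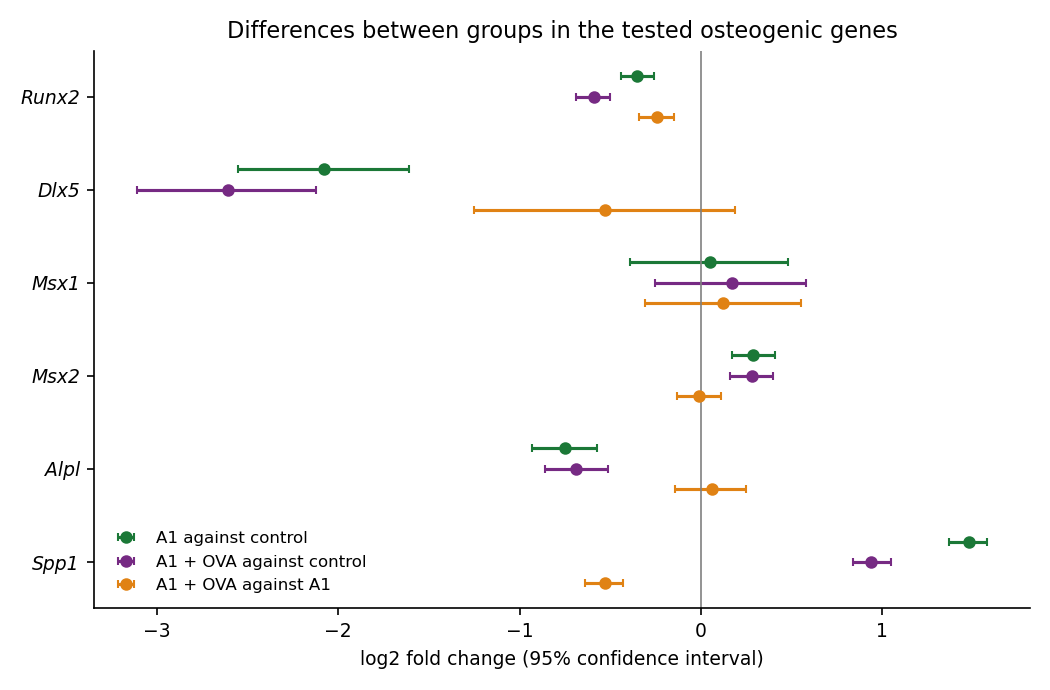
Log2 fold changes of the 6 tested genes in the 3 comparisons, with 95% confidence intervals from edgeR's quasi-likelihood fit (n = 4 per group). Points left of 0 are lower in the group named first. Dlx5 lies at -2.08 and -2.61 against control MSCs and Spp1 at 1.48 and 0.94, while Msx1 spans 0 in all 3 comparisons.

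In the comparison of A1/OVA-treated with control MSCs, 5 of the 6 tested genes again passed the test, with Spp1 and Msx2 higher and Runx2, Dlx5 and Alpl lower, against a background of 57.6% of all tested genes (29.7% higher and 27.9% lower). Both comparisons use the same 4 control samples, so that their values are given side by side and not as separate evidence. The 5 genes that passed were also those whose groups did not overlap, which held for 54.4% of all tested genes with A1 and 49.4% with A1/OVA. With a log2 fold change of at least 0.5 also required, 3 members passed with A1 (Dlx5, Alpl and Spp1) beside 21% of all tested genes, and 4 with A1/OVA (these and Runx2) beside 17.7%. In all these counts Dlx5 could be called only as lower, as said above.

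Whether OVA given with A1 changed these genes was read from A1/OVA-treated against A1-treated MSCs, where 2 of 6 passed beside 12.9% of all tested genes. Both were lower with A1/OVA, beside 6.81% of all genes in that direction, and no member was higher, beside 6.05%. Runx2 fell by 0.24 on the log2 scale (SE 0.046, interval -0.34 to -0.15, adjusted p = 0.00119, edgeR), a further step away from control MSCs. Spp1 fell by 0.53 (SE 0.049, interval -0.64 to -0.43, adjusted p = 3.92e-07, edgeR), a step back towards control MSCs and 1.45-fold in size. Spp1 was the 1 member past a log2 fold change of 0.5 as well, beside 1.2% of all tested genes. Neither gene overlapped between the 2 treated groups, as was so for 18.1% of all genes. Dlx5 differed by -0.53 (interval -1.25 to 0.19, adjusted p = 0.411), Msx1 by 0.12 (interval -0.31 to 0.55, adjusted p = 0.746), Msx2 by -0.01 (interval -0.13 to 0.11, adjusted p = 0.937) and Alpl by 0.06 (interval -0.14 to 0.25, adjusted p = 0.729), all by the same edgeR test, and these 4 genes overlapped between the groups.

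The surroundings of 3 genes were examined. Dlx5 lies 9236 bases from Dlx6, the paired homeobox gene it is often expressed with. Dlx6 fell from 1.87 ± 0.285 CPM in control MSCs to 0.722 ± 0.349 with A1 and 0.485 ± 0.173 with A1/OVA (log2 fold changes -1.36 and -1.91, adjusted p = 0.000235 and 9.61e-06, edgeR). These values rest on few counts, 23 to 34 in control MSCs, 3 to 13 with A1 and 5 to 12 with A1/OVA. Like Dlx5, Dlx6 leaves the test when 10 counts are required in every sample. Its control samples alone sufficed to carry it past the count filter, which favours a call as lower, and its p-values carry that limit. The genes on either side of the pair, chosen after their values were seen, did not fall. Sem1 had log2 fold changes of 0.06 and -0.01, and Sdhaf3 of 0.11 (adjusted p = 0.308) and 0.24 (adjusted p = 0.0149).

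Spp1 belongs to a cluster of mineral-binding matrix genes on chromosome 5 with Dspp, Dmp1, Ibsp and Mepe. Dspp, Ibsp and Mepe had 0 counts in all 12 samples, although Mepe is 96.5 kb and Ibsp 123.6 kb from Spp1. Dmp1, a matrix gene typical of osteocytes, 221 kb away, had 15, 14, 13 and 7 counts in control MSCs, 35, 36, 33 and 29 with A1 and 22, 24, 21 and 23 with A1/OVA. It rose by 1.71 and 0.97 on the log2 scale (SE 0.209 and 0.228, adjusted p = 3.61e-07 and 0.00104, edgeR) and was 0.74 lower with A1/OVA than with A1 (log2 fold change -0.74, adjusted p = 0.0101), the same order of groups as Spp1 from a far lower level. The flanking genes, chosen after their values were seen, went both ways. Of the nearest gene on each side of the cluster, Sparcl1 had log2 fold changes of -0.91 and -0.70, and Pkd2 of -0.12 and -0.11, with A1 and A1/OVA. Farther out, Hsd17b11 was lower (-0.44 and -0.32) and Nudt9 higher (0.21 and 0.22).

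Runx2 shares its locus with genes on the other strand, also chosen after their values were seen. Supt3, which overlaps its 5′ part, rose from 8.402 CPM in control MSCs to 11.2 with A1 and 11.8 with A1/OVA (log2 fold changes 0.42 and 0.49, adjusted p = 0.000879 and 0.000165, edgeR), while the antisense gene Runx2os1 stood at 0.814, 1.23 and 1.42 CPM and was not tested. The libraries keep strand and were counted by strand. Supt3 therefore differed in the opposite direction from Runx2.

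**Figure D3:**
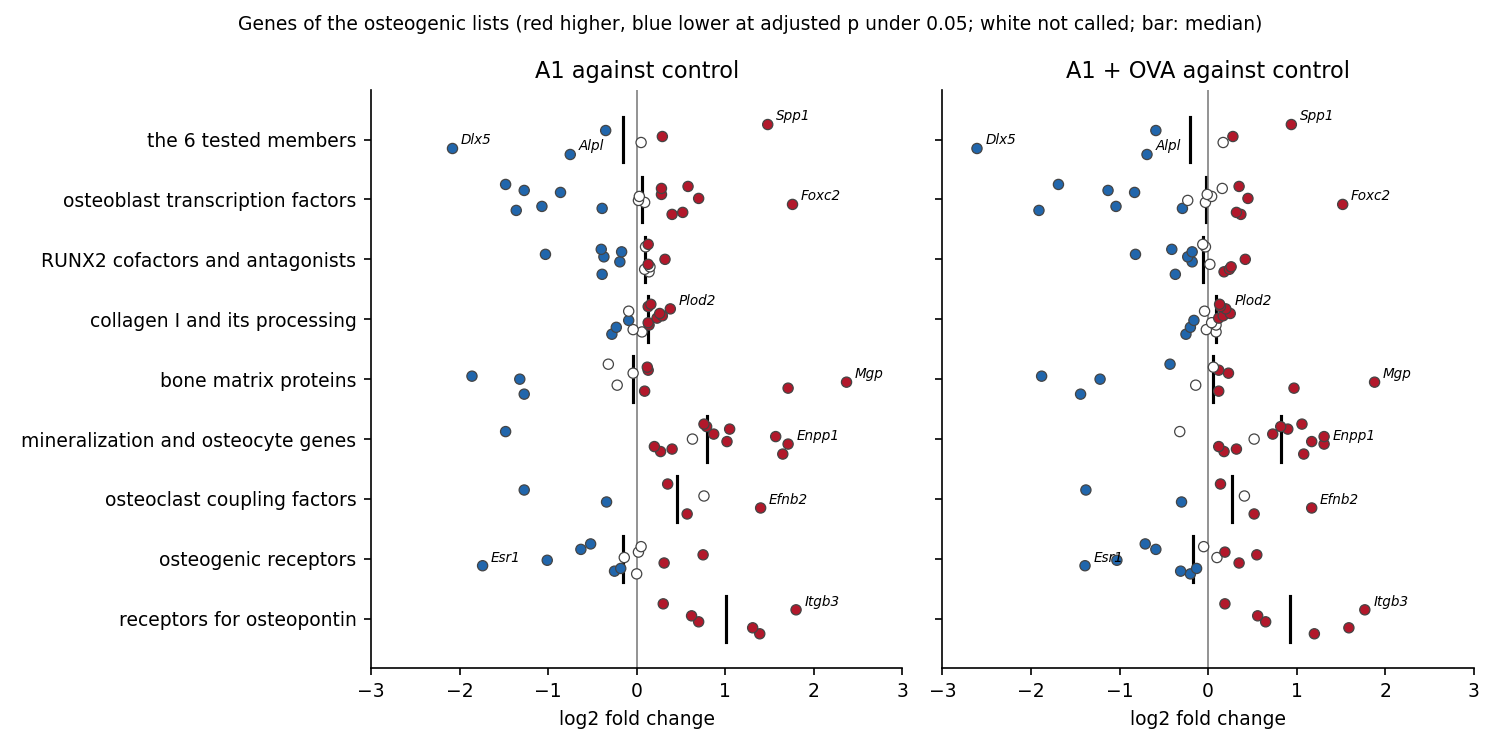
Log2 fold changes against control MSCs of the 6 tested members and of the tested genes of 8 osteogenic lists, with A1 in the left panel and A1/OVA in the right. Points are genes, red where higher and blue where lower at an adjusted p under 0.05 and white where not, black bars are medians, and the gene with the largest passing change with A1 is labelled in 7 of the lists, as are 3 members. All 6 tested receptors for osteopontin lie right of 0, with a median of 1.00 with A1, whereas the osteoblast transcription factors lie on both sides, from -1.48 to 1.76. The lists were chosen with earlier results of these data known.

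Genes of the same pathways were read from 8 lists, which hold 114 genes, 91 of them tested. Of these 91, 72 passed with A1 (45 higher and 27 lower, 79.1%) and 71 with A1/OVA (43 higher and 28 lower, 78.0%), and 23 differed between A1/OVA and A1 (5 higher and 18 lower, 25.3%). The shares of all tested genes that passed were 62.7%, 57.6% and 12.9%. The medians of the log2 fold changes were 0.13, 0.12 and -0.05, and those of all tested genes -0.002, 0.004 and 0.006.

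Among 16 tested osteoblast transcription factors, with a median of 0.06, 7 were higher and 6 lower with A1, beside 31.7% and 31.1% of all tested genes. Foxc2, a forkhead factor of mesenchyme, rose from 13.7 ± 1.04 to 46.1 ± 3.41 CPM (log2 fold change 1.76, and 1.52 with A1/OVA). Zfp521, a zinc finger antagonist of RUNX2, fell from 27.3 ± 2.33 to 9.77 ± 0.426 CPM (log2 fold change -1.48, and -1.69 with A1/OVA), and Snai2, a zinc finger factor of mesenchymal cells, fell from 316 ± 6.86 to 131 ± 4.46 CPM (log2 fold change -1.27, and -1.13 with A1/OVA). The RUNX2 antagonists Twist1 and Twist2, named after their values were seen, were instead higher with A1 (log2 fold changes 0.28 and 0.58, and 0.16 and 0.35 with A1/OVA, where Twist1 did not pass). Cbfb, the partner with which RUNX2 binds DNA and named after its values were seen, rose from 161 ± 6.13 to 231 ± 4.27 CPM (log2 fold change 0.52, adjusted p = 1.58e-09, edgeR), so that the ratio of Cbfb to Runx2 in CPM per kb went from 3.29 ± 0.164 to 6.02 ± 0.323, and to 6.21 ± 0.488 with A1/OVA.

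Of the 13 RUNX2 cofactors and antagonists, 3 were higher and 6 lower with A1, beside 31.7% and 31.1% of all tested genes. Among those lower were the repressor Trps1 (log2 fold change -0.40, and -0.41 with A1/OVA), the histone deacetylase Hdac3 (-0.39 and -0.37) and the ubiquitin ligase Smurf2 (-0.37 and -0.23). These 3 are known to restrain RUNX2, but members with a like role, named after their values were seen, went the other way. The ubiquitin ligase Smurf1 was higher with A1 and A1/OVA (0.32 and 0.42), and the histone deacetylases Hdac4, Hdac5 and Hdac7 were higher with A1/OVA (0.18, 0.24 and 0.26), so that antagonists of RUNX2 differed in both directions.

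The collagen I list held small changes. With A1, 8 of 14 genes were higher and 3 lower, beside 31.7% and 31.1% of all tested genes, and none changed by 0.5 or more on the log2 scale. Among them were the collagen-modifying enzymes Plod2 (0.38, and 0.20 with A1/OVA), P4ha1 (0.29 and 0.17) and P4ha2 (0.26 and 0.25), and the procollagen peptidase Adamts2 (-0.28 and -0.25). Of the collagen chains themselves, named after their values were seen, Col1a1 stood at 3335 ± 289 CPM in control MSCs and 3246 ± 238 CPM in A1-treated MSCs (log2 fold change -0.04, adjusted p = 0.583, edgeR), and Col1a2 fell by 0.23 on the log2 scale (adjusted p = 3.32e-05).

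Of 11 tested bone matrix genes, 5 were higher and 3 lower with A1, beside 31.7% and 31.1% of all tested genes. Mgp, an inhibitor of calcification, rose from 28.2 ± 2.31 CPM in control MSCs to 146 ± 3.76 with A1 and 104 ± 4.16 with A1/OVA (log2 fold changes 2.37 and 1.88), in the same order of groups as Spp1. The small leucine-rich proteoglycans Omd and Ogn fell, Omd from 15.5 ± 1.59 to 4.26 ± 0.321 CPM (log2 fold change -1.86, and -1.88 with A1/OVA) and Ogn from 623 ± 36.3 to 250 ± 17.4 CPM (log2 fold change -1.32, and -1.22 with A1/OVA).

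Of 13 tested mineralization and osteocyte genes, 11 were higher and 1 lower with A1, with a median of 0.79, beside 31.7% higher and 31.1% lower among all tested genes. With A1/OVA 11 were higher and none lower, with a median of 0.82, beside 29.7% and 27.9%. Enpp1 and Ank concern pyrophosphate, the substrate of the Alpl product. Enpp1, which makes pyrophosphate outside the cell, rose from 19.3 ± 1.04 to 63.1 ± 1.25 CPM with A1 (log2 fold change 1.71, adjusted p = 2.91e-17, edgeR) and 47.8 ± 1.19 CPM with A1/OVA (log2 fold change 1.31). Ank, a membrane protein needed for the release of pyrophosphate, rose from 163 ± 6.03 to 510 ± 17.5 and 343 ± 10.9 CPM (log2 fold changes 1.65 and 1.08). The membrane glycoprotein Pdpn, a mark of early osteocytes, rose by 1.57 and 1.31 on the log2 scale. The osteocyte genes Sost and Fgf23 of the same list, named after their values were seen, were too sparse to be tested. Sost stood at 0.0155 CPM in control MSCs and 0 in both treated groups, and Fgf23 at 0.139 CPM in control MSCs, 0 with A1 and 0.0165 with A1/OVA.

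Set against Alpl in each sample and per kb of exon, Enpp1 gave a ratio of 0.495 ± 0.0244 in control MSCs, 2.76 ± 0.406 in A1-treated MSCs and 1.99 ± 0.117 in A1/OVA-treated MSCs. Ratios lay between 0.468 and 0.526 in control samples and between 1.88 and 3.26 in treated ones. They could not overlap, since every treated sample was above every control in Enpp1 and below every control in Alpl. The pair was chosen after its values were seen, and the ratio is one of RNA levels. Phospho1, a phosphatase that starts mineral inside matrix vesicles, was the 1 gene of the list that was lower, with 14, 8, 10 and 23 counts in control MSCs and 4 in each A1-treated sample (log2 fold change -1.48, SE 0.422, adjusted p = 0.00447, edgeR). With counts this few in every A1-treated sample, the gene passed the count filter only through control and A1/OVA-treated samples. Phospho1 was thereby favoured to be called lower with A1, and its p-value carries that limit. With A1/OVA it had 7, 16, 11 and 7 counts, which overlapped the controls (log2 fold change -0.32, adjusted p = 0.424, edgeR; 0.05 without control replicate 4).

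**Figure D4:**
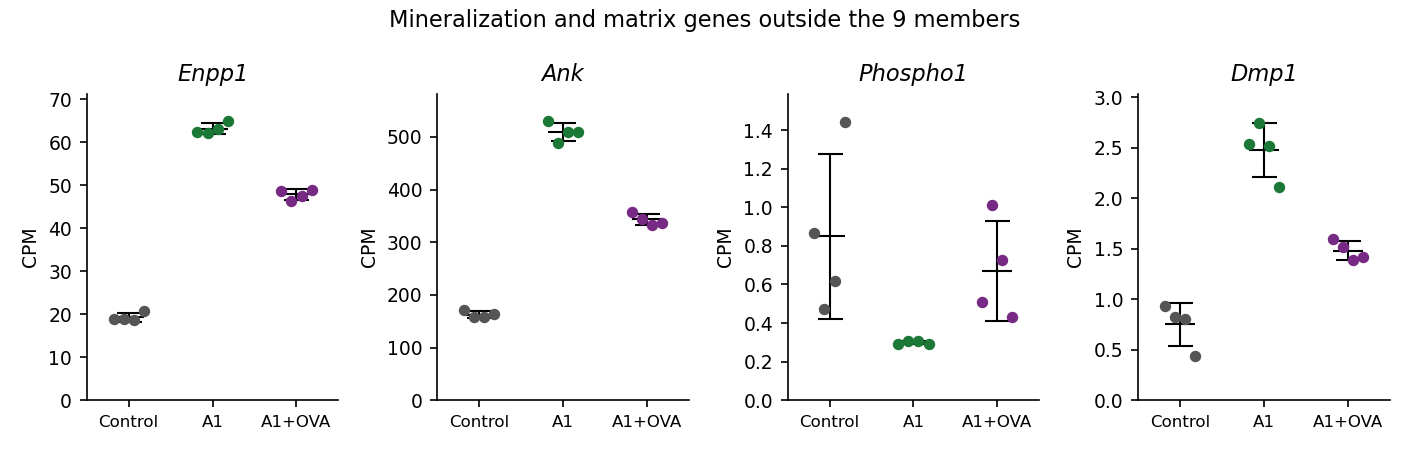
CPM of 4 genes of mineral handling, Enpp1, Ank, Phospho1 and Dmp1, in each of the 12 samples on linear axes that start at 0. Points are samples and horizontal bars are group means with their SD (n = 4). Enpp1 and Ank were highest with A1, at 63.1 and 510 CPM on average, and stood between A1 and the controls with A1/OVA.

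All 6 tested receptors for osteopontin passed the test and were higher in both comparisons, with medians of 1.00 and 0.92, beside 31.7% and 29.7% of all tested genes that were higher. The list holds 8 genes and was chosen with earlier results of these data known, which limits the comparison with these shares. Itgb3, whose integrin binds the RGD motif of osteopontin, rose from 4.13 ± 0.487 to 14.3 ± 1.05 CPM (log2 fold change 1.80, and 1.77 with A1/OVA), Cd44 from 175 ± 6.51 to 458 ± 14.2 CPM (1.39 and 1.20), Itga5 from 177 ± 13.0 to 437 ± 22.4 CPM (1.31 and 1.59) and Itgav from 430 ± 33.9 to 700 ± 25.5 CPM (0.70 and 0.65). Osteopontin RNA and that of its receptors were thus higher in the same samples. These genes are also expressed outside bone.

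Osteoclast coupling factors and receptors for osteogenic signals went both ways. Of 6 tested coupling factors 3 were higher and 2 lower with A1, beside 31.7% and 31.1% of all tested genes. Efnb2, a membrane ligand of osteoclasts and osteoblasts, had log2 fold changes of 1.40 and 1.17 with A1 and A1/OVA. In the same order, the macrophage growth factor Csf1 had 0.57 and 0.52 and the decoy receptor Tnfrsf11b 0.35 and 0.14. Sema3a, which favours osteoblasts over osteoclasts, had -1.27 and -1.38. Of 12 tested receptors 2 were higher and 6 lower with A1, beside 31.7% and 31.1% of all tested genes. The estrogen receptor Esr1 fell from 16.6 ± 0.622 to 4.96 ± 0.277 CPM (log2 fold change -1.74, and -1.39 with A1/OVA), Fgfr2 from 60.9 ± 1.96 to 30.2 ± 0.944 CPM (-1.01 and -1.03) and the Wnt coreceptor Lrp6 from 312 ± 14.1 to 201 ± 9.62 CPM (-0.63 and -0.59), while the growth hormone receptor Ghr rose from 195 ± 8.54 to 329 ± 9.77 CPM (0.75 and 0.55).

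The genes whose pattern was most like that of each member were found by the root-mean-square difference of centred log2 CPM over the 12 samples, where 0 means the same pattern. Nearest to Runx2 were Gli3 (0.0605), Dab2 (0.0677) and Top2b (0.0677), and nearest to Spp1 were Errfi1 (0.0842), Sh2d1b1 (0.0958) and Bdnf (0.0964). Alpl lay closest to Cpt1a (0.076), Calhm5 (0.076) and Btbd2 (0.0816), and Msx2 to Phtf2 (0.0408), Pfdn2 (0.0413) and Fam57a (0.0421). The sparse genes had no neighbour as near, with Cldn1 (0.212), Colec10 (0.229) and Abcd2 (0.241) for Dlx5 and Dpf1 (0.12), Ap5b1 (0.157) and Acap3 (0.165) for Msx1. All 18 distances share the libraries and their depth, and describe these samples only.

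Markers of the cells named and of other cells were read beside these results. The 10 stromal markers all had more than 3 counts in some sample, and their summed level was 4850 to 5085 CPM in control, 2579 to 2690 CPM in A1-treated and 2670 to 2796 CPM in A1/OVA-treated MSCs, most of it Cxcl12 (means of 3910, 1514 and 1692 CPM). Of the 8 stromal markers tested, 4 were lower with A1, beside 31.1% of all tested genes, and 1, Cd44, was higher (log2 fold change 1.39), beside 31.7%. Pdgfrb (-0.01), Eng (-0.05) and Nt5e (0.63) did not pass with A1. Thy1, a usual MSC marker, had at most 17 counts in a control sample and 3 in a treated one. Since macrophages and osteoclasts also make osteopontin, their markers matter for Spp1. Of 11 macrophage and leukocyte markers 6 had at most 3 counts in every sample, C1qa, C1qb, C1qc and Tyrobp had 0 in all 12, and the sum, most of it Cd14, was 9.41 to 10.5 CPM in control, 11.98 to 14.7 CPM in A1-treated and 10.7 to 13.1 CPM in A1/OVA-treated MSCs. Of the 2 tested, Cd14 was higher with A1 and A1/OVA (log2 fold changes 0.57 and 0.29), and Cd68 did not pass (-0.10 and 0.22).

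Of 10 osteoclast markers 6 had at most 3 counts, among them Acp5, with Calcr and Dcstamp at 0, and the sum, most of it Nfatc1, was 59.7 to 67.4 CPM in control, 108 to 111 CPM in A1-treated and 93.2 to 98.4 CPM in A1/OVA-treated MSCs. All 3 tested osteoclast markers were higher with A1, beside 31.7% of all tested genes. Their log2 fold changes were 0.69 for Nfatc1, 1.80 for Itgb3 and 0.94 for Ctsk, which had at most 21 counts in any sample. With A1/OVA Nfatc1 and Itgb3 were higher (0.46 and 1.77), and Ctsk did not pass (0.50, adjusted p = 0.137, edgeR). The 7 adipocyte markers summed to 2000 to 2245 CPM in control, 799 to 823 CPM in A1-treated and 865 to 942 CPM in A1/OVA-treated MSCs, most of it Lpl (means of 1840, 585 and 689 CPM). Of the 5 adipocyte markers tested, 3 were lower with A1, beside 31.1% of all tested genes. Pparg (log2 fold change -0.01, adjusted p = 0.93, edgeR) and Fabp4 (0.02, adjusted p = 0.80, edgeR) did not pass with A1, and Fabp4 was higher with A1/OVA (0.17, adjusted p = 0.011, edgeR). The 7 tendon and smooth muscle markers summed to 2298 to 2623, 4758 to 5001 and 4971 to 5226 CPM, most of it Acta2 (means of 2248, 4322 and 4534 CPM). Of the 5 tested, the smooth muscle genes Acta2, Tagln and Cnn1 and the tendon factor Scx were higher with A1, beside 31.7% of all tested genes. The tendon factor Mkx did not pass (-0.04, adjusted p = 0.719, edgeR). Of the 9 chondrocyte markers Acan and Col9a1 were at 0, with sums of 25.2 to 29.2, 27.7 to 33.8 and 22.8 to 26.1 CPM. Of the 5 tested, Sox5 (log2 fold change 1.45) and Sox9 (0.30) were higher with A1, beside 31.7% of all tested genes. Comp (-1.74) and Matn3 (-0.72) were lower, beside 31.1%, and Col10a1 (0.14) did not pass. Comp had only 4 to 7 counts in A1-treated samples. With A1/OVA, Sox5 was higher (0.74), Comp and Matn3 lower (-1.22 and -0.53), and Sox9 (-0.13) and Col10a1 (-0.16) did not pass. The 5 endothelial markers summed to at most 0.916 CPM in any sample. Itgb3 stands among the osteoclast markers as well as among the receptors for osteopontin, and Cd44 among the stromal markers. The part of the stromal, macrophage, osteoclast, adipocyte, chondrocyte, tendon and smooth muscle markers in the values of Runx2, Dlx5, Alpl, Msx2 and Spp1 was not tested.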

How the data were processed

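RNA was collected from 12 MSC samples, 4 per group, and polyadenylated RNA was sequenced as stranded, paired-end libraries. The authors aligned reads with STAR 2.7 to the mouse genome and counted them by gene and strand with featureCounts 2.0, per the labels' processing notes and the study's methods. The deposited table holds raw counts, whole numbers not normalized. Identifiers were named from the GENCODE annotation of GRCm38 (99.53% matched). Protein-coding genes (21974) passing edgeR's filterByExpr were kept, which left 11314. Library sizes were scaled by TMM, and 1 quasi-likelihood model of the 12 samples was fitted (edgeR 4.0.16, R 4.3.3), with Benjamini-Hochberg adjustment over all tested genes and a threshold of 0.05. Log2 CPM used a prior count of 2, and CPM per kb the union exon length. The test was checked on simulated counts in which 199 of 11250 genes changed by 1 on the log2 scale. It recovered 98% of them, with 16 false calls. A far larger share of genes passed in these data, so the check does not cover changes this broad.

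The 9 genes, the gene lists and the tests were chosen with earlier results of these data known. Beside the 9 genes, the text names Bglap2, Bglap3, up to 4 passing genes of each osteogenic list with the largest log2 fold change with A1, and the 3 genes nearest in pattern to each tested member, and says where a gene was chosen otherwise. A gene that the rule names is not reported here. Alternatives were RLE and upper-quartile scaling, no filter, a minimum of 10 counts per sample, non-coding genes included, DESeq2 1.42.0, only the groups compared, a replicate block, a minimum log2 fold change of 0.5, and leaving out each sample. No 2 samples of a group agreed within sampling noise (chi-square per gene 1.91 to 6.80). Sample depth was 13702348 to 16881995 counts.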

Additional observations from a re-analysis of the deposited data

Results flagged for a closer look

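In 18 groups of 4 samples for the 6 tested members, no sample stood apart by Dixon's criterion (a gap to the nearest sample beyond the 95% critical share of the range). Over the 93 groups of the named list genes, 5 did, and chance gives about 1 in 20. Foxc2 had 12.12 CPM in control replicate 2, below 14.11 to 14.23 CPM in the other controls. Zfp521 had 7.196 CPM in A1/OVA replicate 3, below 8.697 to 8.936 CPM. Dlx6 had 1.442 CPM in control replicate 4, below 1.98 to 2.042 CPM. Enpp1 had 20.82 CPM in control replicate 4, above 18.56 to 18.94 CPM. Ghr had 343.7 CPM in A1 replicate 3, above 322.5 to 326.2 CPM.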

How the results depend on the processing

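The number of members past the test was 5, 5 and 2 in the comparisons of A1 with control, A1/OVA with control and A1/OVA with A1 under every alternative except a minimum of 10 counts per sample (4, 4 and 2, since Dlx5 then leaves the test) and a minimum fold change. With a log2 fold change of at least 0.5 also required, it was 3 with A1, 4 with A1/OVA and 1 between A1/OVA and A1, and the number of list genes was 37 with A1, 33 with A1/OVA and 2 between them. Without each sample in turn, the member counts did not move, and the list counts were 71 to 73, 67 to 72 and 18 to 24.

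The directions that turned belonged to differences that had not passed the test. Without each sample in turn, Msx1 ranged from -0.04 to 0.14 on the log2 scale with A1 (-0.02 without control replicate 2 and -0.04 without A1 replicate 1) and from -0.04 to 0.29 between A1/OVA and A1. Between A1/OVA and A1, Msx2 ranged from -0.03 to 0.02 and Alpl from -0.01 to 0.15. For 34 named list genes, added after the data were seen, 5 of 1353 values turned, 4 for Col1a1 with A1/OVA (range -0.05 to 0.02) and 1 for Phospho1 with A1/OVA (range -0.60 to 0.05, turned without control replicate 4). The causes were not tested.

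Same-numbered samples did not deviate together (mean r 0.021 over 12 pairs, against -0.007 over 36 others, and 4 of 12 samples correlated best with their own number), so the numbers were not taken as a pairing. With the replicate number as a block, 5, 5 and 2 members and 73, 71 and 24 list genes passed. Depth limits Dlx5, Msx1, Dmp1, Dlx6 and Phospho1, whose values rest on few counts, and leaves Sp7, Bglap and Ibsp without a comparison.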
